A study of Mus musculus with 2 samples.

Results

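The extracellular antagonists of bone morphogenetic proteins (BMPs) and the receptor subunits that bind these ligands were followed through single-cell libraries of amputated mouse digits. The set held 9 of the 33696 genes in the count tables, chosen by their symbols: the antagonists Grem1, Nog, Chrd, Chrdl1, Fst and Bmper, and the receptors Bmpr1a, Bmpr1b and Bmpr2. Neonatal ICR mice, an outbred strain, with no engineered allele named in the labels, were amputated through the middle phalanx (P2) at postnatal day 3 (PN3). At PN7 a bead soaked in FGF8, a fibroblast growth factor, or in BSA, an inert carrier protein, was placed in the wound. The tissue beyond the P2 stump was dissociated 24 h later, at PN8, after the surrounding epithelium had been stripped. Each group was 1 library of 20 pooled digits from 5 mice of both sexes, so treatment, animals and library cannot be told apart, no test between groups was possible, and every interval given here is an exact 95% interval for counting error only.

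The BSA library held 3703 barcodes and the FGF8 library 7249, of which 3252 and 6715 passed the filters on cells, with a median of 15377 and 12251 unique molecular identifiers (UMIs, counted transcript molecules) per cell. The libraries shared 6 barcode sequences, 4 of them among the kept cells. Of cells whose sex could be called from X- and Y-linked transcripts, 79.3% (77.7 to 80.9) were female in the BSA library and 24.6% (23.4 to 25.9) in the FGF8 library, so the pools differed in the sex of the cells they gave. Clustering without the 9 genes gave 11 cell types, of which the fibroblast-like cells were the most numerous (1832 BSA and 3567 FGF8 cells, led by Mfap4, Crabp1, Mfap5 and Dpt). No cluster carried an osteoblast name. Levels are counts per 1000000 UMIs of the same cells (CPM), and differences are log2 ratios of the FGF8 over the BSA level. A transcript is counted from its 3′ end, so levels are compared within a gene and never between genes.

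BMPs are secreted ligands of the TGFβ superfamily that drive cartilage and bone formation and pattern the joints and digits of the limb. They assemble type I receptors (the products of Bmpr1a and Bmpr1b) with a type II receptor (that of Bmpr2), which then activate SMAD transcription factors. Secreted antagonists hold the ligands away from these receptors: noggin and gremlin 1 bind BMPs directly, chordin and chordin-like 1 bind them until proteases release them, BMPER (crossveinless 2) can block or promote signalling, and follistatin binds activins most tightly and some BMPs.

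On the GRCm39 assembly, per GENCODE, all 9 are protein-coding genes. Of the antagonists, Grem1 lies on chromosome 2 (113576509 to 113589000), Nog on chromosome 11 (89191464 to 89193158), Chrd on chromosome 16 (20550622 to 20561857), Chrdl1 on chromosome X (142068670 to 142177258), Fst on chromosome 13 (114588731 to 114595521) and Bmper on chromosome 9 (23134325 to 23396509). Of the receptors, Bmpr1a lies on chromosome 14 (34132687 to 34225379), Bmpr1b on chromosome 3 (141542897 to 141875323) and Bmpr2 on chromosome 1 (59802544 to 59918173). Chrdl1 is thus X-linked, and the sex of the cells differed between the libraries. Any part of that position in its ratios was not tested.

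Promoter sequences from RefSeq (GRCm38.p6 table) were matched by symbol for 6 of the 9 genes, with no entry for Fst, Nog or Chrdl1. The windows of Grem1 and Chrd are shown, each 250 bases before the start and 50 after it, because these antagonists moved in opposite directions inside the largest FGF8 subcluster described further on. Both match GRCm39 exactly once, Grem1 at chr2:113588944-113589243 on the minus strand and Chrd at chr16:20551627-20551926 on the plus strand, the latter inside the longer GENCODE gene. Capitals mark GGCGCC, a GC-rich palindrome searched on both strands along with TGANTCA and CCGGAA.
Grem1: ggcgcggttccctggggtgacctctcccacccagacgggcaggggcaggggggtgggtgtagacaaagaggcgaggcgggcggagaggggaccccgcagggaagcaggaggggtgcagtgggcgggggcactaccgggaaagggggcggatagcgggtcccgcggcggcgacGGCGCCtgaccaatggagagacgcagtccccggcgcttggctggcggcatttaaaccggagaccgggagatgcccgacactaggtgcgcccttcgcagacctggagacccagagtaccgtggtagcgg
Chrd: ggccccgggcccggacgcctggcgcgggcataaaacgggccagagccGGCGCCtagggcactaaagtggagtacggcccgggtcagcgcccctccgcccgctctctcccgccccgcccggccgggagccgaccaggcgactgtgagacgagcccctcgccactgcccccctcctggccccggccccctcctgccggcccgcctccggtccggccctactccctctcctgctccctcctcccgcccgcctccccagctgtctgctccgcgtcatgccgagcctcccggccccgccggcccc
Each window held 1 GGCGCC, beginning 78 bases before the Grem1 start and 203 bases before the Chrd start, and neither held TGANTCA or CCGGAA. Of all 32851 promoter windows in the table, 11.9% held GGCGCC, 7.81% TGANTCA and 14.9% CCGGAA. The 2 windows were GC-rich, at 70.7% for Grem1 and 78.3% for Chrd, against a median of 52.7% over all windows. The matches describe the letters of these windows and nothing was measured on them here.

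The 9 genes were distributed differently over the cell types. Grem1, Chrd and Bmpr1b reached their highest level in fibroblast-like cells in both libraries, Nog and Chrdl1 in chondrocyte-like cells, Fst in Schwann-like cells, Bmpr1a in keratinocyte-like cells and Bmpr2 in blood endothelial-like cells, among types with at least 20 cells. Bmper was highest in chondrocyte-like cells of the BSA library and in keratinocyte-like cells of the FGF8 library. Some of these places changed when each cell was thinned to 2000 UMIs. In the BSA library Chrd and Bmpr1b were then highest in chondrocyte-like, Bmpr1a in fibroblast-like and Bmpr2 in mast-like cells. Bmper was then highest in fibroblast-like cells of both libraries. Fibroblast-like cells nevertheless held most of the UMIs of every gene. In the BSA library their share ran from 61.3% for Fst to 94.0% for Grem1, beside 65.5% of all UMIs. In the FGF8 library it ran from 73.7% for Bmpr2 to 94.6% for Grem1, beside 67.8% of all UMIs.

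**Figure D1:**
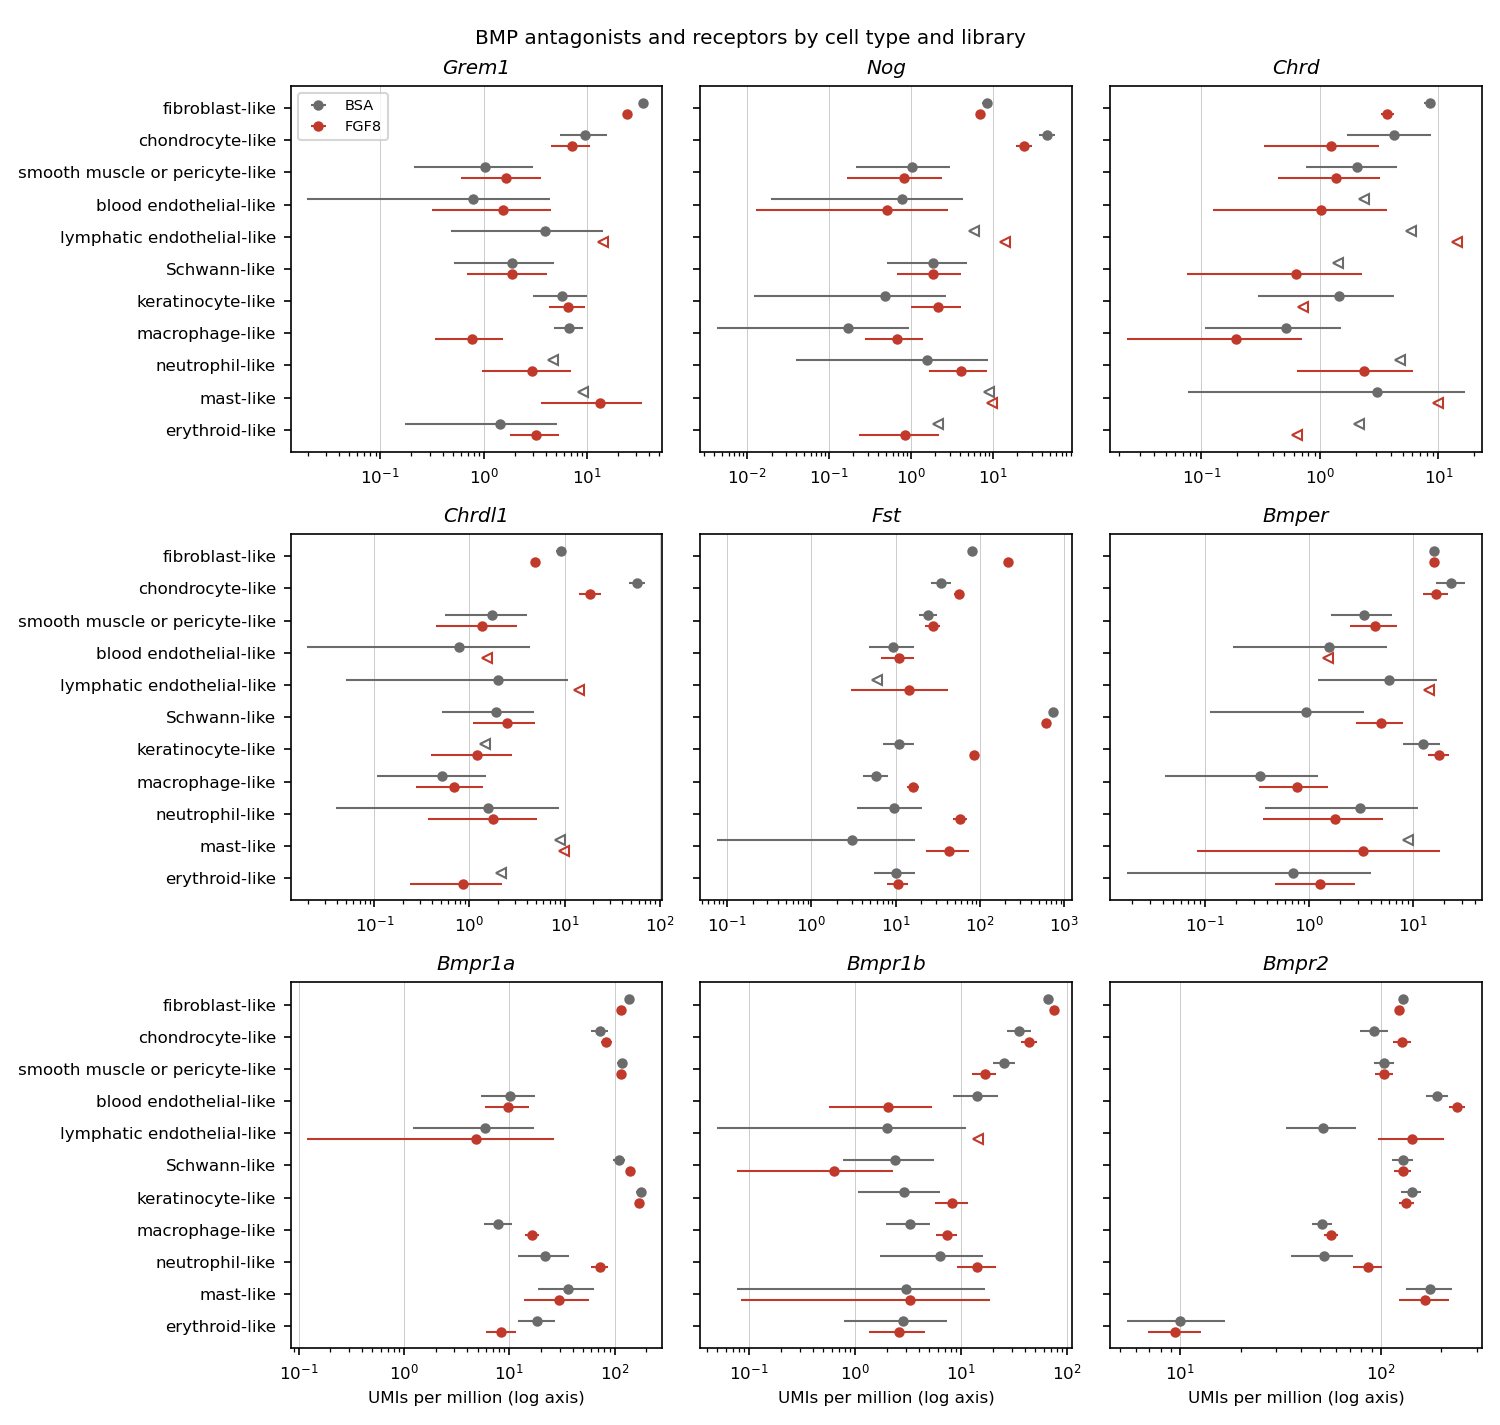
Level of each gene (CPM, log axis) in the 11 cell types, with BSA in grey, FGF8 in red and bars for the exact 95% Poisson interval. Open triangles stand at the limit that a count of 0 allows (3 counts). Fst stands highest in Schwann-like cells (743 and 599 CPM) and Nog and Chrdl1 in chondrocyte-like cells.

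Among the antagonists, Grem1 and Chrd had the largest shares of their UMIs in fibroblast-like cells. These cells held 94.0% of the Grem1 UMIs in the BSA and 94.6% in the FGF8 library, and 93.8% and 93.2% of the Chrd UMIs. Outside them, Grem1 was at 1.88 CPM in Schwann-like cells of both libraries and at 6.69 and 0.778 CPM in macrophage-like cells (39 and 8 UMIs, BSA and FGF8). Erythroid-like cells were taken as a background for Grem1, and whether they make any was not tested. They gave a Grem1 UMI in 1.23% of 81 BSA and 1.14% of 614 FGF8 cells, against 16.7% and 13.9% of fibroblast-like cells. The median depths behind these shares were 18393 and 6996.5 UMIs per erythroid-like cell and 19054.5 and 17357 UMIs per fibroblast-like cell. After each cell was thinned to 2000 UMIs those shares became 1.33% and 1.04% against 5.41% and 4.88%, over 75 and 480 erythroid-like and 1644 and 3175 fibroblast-like cells deep enough to be thinned.

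Nog and Chrdl1 were shared between cartilage and connective tissue cells. Chondrocyte-like cells were 2.06% of BSA and 2.14% of FGF8 cells, yet they held 78 of 390 and 79 of 602 Nog UMIs and 22.1% and 13.7% of the Chrdl1 UMIs. Nog reached 46.8 CPM (78 UMIs) in BSA and 24.5 CPM (79 UMIs) in FGF8 chondrocyte-like cells, against 8.46 and 6.95 CPM in fibroblast-like cells. Chrdl1 reached 58.2 CPM (97 UMIs) and 18.6 CPM (60 UMIs), against 9.19 and 4.95 CPM. Both genes were thus lower in the FGF8 chondrocyte-like cells, by a log2 ratio of -0.94 (-1.41 to -0.47) for Nog and -1.65 (-2.14 to -1.17) for Chrdl1.

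The chondrocyte-like difference was not alike in the 2 sexes. In female-called chondrocyte-like cells Chrdl1 had 89 UMIs in 17 of 42 BSA cells and 0 UMIs in 41 FGF8 cells. The level was 25.0-fold lower with the 0 set at 3 counts, a value that leaves out the counting error of the 89. In male-called ones Chrdl1 had 8 and 58 UMIs, at 26.2 and 30.7 CPM, a log2 ratio of 0.23 (-0.84 to 1.51). Nog had 70 and 4 UMIs in the female-called cells (log2 ratio -3.88, -5.80 to -2.46) and 6 and 68 UMIs in the male-called cells (0.87, -0.32 to 2.37). Bmpr1b ran the other way, at 25.1 and 84.7 CPM in female-called cells (31 and 88 UMIs, log2 ratio 1.75, 1.15 to 2.39) and at 75.2 and 23.8 CPM in male-called cells (23 and 45 UMIs, -1.66, -2.42 to -0.87). How many animals of each sex gave these cells is not given in the sources used here, and sex, animal and treatment cannot be told apart in them.

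Among the 11 cell types Fst had its highest level in glia, though a Corin/Alx4 subcluster of the fibroblast-like cells, described below, stood higher (1116 and 876 CPM). Schwann-like cells, the glia of peripheral nerve, had 1577 Fst UMIs in 123 BSA cells and 1912 in 240 FGF8 cells, at 743 and 599 CPM. They held 33.9% of the Fst UMIs in the BSA library and 10.8% in the FGF8 library. An Fst UMI was found in 91.1% and 87.5% of them, and still in 69.5% (60.3 to 77.6) and 56.2% (49.6 to 62.6) after thinning, against 2.67% and 1.46% of thinned erythroid-like cells. Schwann-like cells were also the only type with at least 100 Fst UMIs in which the level was lower in the FGF8 library, with a log2 ratio of -0.31 (-0.41 to -0.21).

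In most other cell types Fst was higher in the FGF8 library. In keratinocyte-like cells it had 23 UMIs in the BSA and 347 in the FGF8 library, at 11.045 and 84.0 CPM (log2 ratio 2.93, 2.32 to 3.60), and in macrophage-like cells 34 and 165 UMIs, at 5.83 and 16.04 CPM (1.46, 0.92 to 2.04). In neutrophil-like cells it had 6 and 98 UMIs, at 9.42 and 58.1 CPM (2.62, 1.45 to 4.10). Erythroid-like cells stood at 9.96 and 10.6 CPM (0.08, -0.80 to 1.06). The keratinocyte-like cells of the BSA library were shallow, with a median of 3958 UMIs per cell against 12500 in the FGF8 library, and the part of depth and of transcripts from other cells in these differences was not tested.

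The receptors had broader patterns, apart from Bmpr1b. Bmpr1a, the type I receptor found in most tissues, was at 136 and 115 CPM in fibroblast-like cells, at 177 and 171 CPM in keratinocyte-like cells and at 10.2 and 9.76 CPM in blood endothelial-like cells. Bmpr2 was at 128 and 123 CPM in fibroblast-like cells and at 190 and 240 CPM in blood endothelial-like cells, and at 9.96 and 9.48 CPM in erythroid-like cells. Bmpr1b, the type I receptor linked to digit and cartilage development, was at 66.0 and 75.1 CPM in fibroblast-like cells, which held 92.5% and 93.7% of its UMIs. It was at 35.4 and 43.7 CPM in chondrocyte-like cells, at 25.4 and 16.7 CPM in smooth muscle or pericyte-like cells and at 2.35 and 0.626 CPM in Schwann-like cells. In the same Schwann-like cells Bmpr1a stood at 109 and 141 CPM, so the 2 type I receptors did not share their distribution.

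At an equal depth few cells gave UMIs of both receptor types. After thinning to 2000 UMIs, a UMI of a type I receptor and of Bmpr2 was found together in 7.60% (6.37 to 8.99) of BSA and 7.50% (6.60 to 8.47) of FGF8 fibroblast-like cells. The share was 7.76% (3.61 to 14.2) and 11.3% (7.39 to 16.4) in keratinocyte-like cells, 0.239% and 0.238% in macrophage-like cells, and 0 of 75 and 0 of 480 in erythroid-like cells. Both type I receptors were seen together in 1.58% and 1.98% of fibroblast-like cells. These are shares of cells with UMIs at this depth, not of cells that hold a complete receptor.

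The fibroblast-like cells allowed the closest comparison of FGF8 with BSA. Of the 9 genes, Fst was more than 2-fold higher and Chrd more than 2-fold lower in the FGF8 library, and the other 7 lay within 2-fold. Neither call held in every one of 14 other settings. Fst stayed past 2-fold in 9 of them and was lower than that with clusters at resolution 0.2 (0.67), in male-called cells (0.75), with cells weighted equally (0.93), after thinning (0.95) and with no upper limit on genes (0.96). Chrd stayed past 2-fold in 11 and was at -0.37 with clusters at resolution 0.2, at -0.78 under a stricter cell filter and at -0.95 after thinning. Of the 20101 genes with at least 10 UMIs in these cells, 11.7% were past 2-fold, 6.74% higher and 4.96% lower. Of genes with at least 100 UMIs, which all 9 reached, 5.47% were past 2-fold. A count of 2 of 9 genes is too few to read against either share. The median log2 ratio of the 9 genes was -0.24 and that of all genes -0.07.

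Fst, whose product follistatin binds activins and some BMPs, had 2850 UMIs in BSA and 14823 in FGF8 fibroblast-like cells, at 80.1 and 212 CPM. The log2 ratio was 1.40 (1.35 to 1.46). A UMI was found in 36.0% and 52.3% of the cells, and after thinning in 8.88% (7.55 to 10.4) and 20.7% (19.3 to 22.1). The highest single cells held 239 UMIs in the BSA and 177 in the FGF8 library, and the top 10% of cells held 73.0% and 66.9% of all Fst UMIs, so the level in both libraries came from a minority of cells.

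The size of the Fst difference depended on which barcodes were kept. The filter on cells took out barcodes with 7500 or more detected genes, 161 in the BSA and 274 in the FGF8 library. These held 36.5% of all Fst UMIs of the BSA library (2675 UMIs) and 20.7% of those of the FGF8 library (4628 UMIs), at 219 and 218 CPM, a log2 ratio of -0.00 (-0.07 to 0.07). Over all barcodes, of every cell type, the log2 ratio of Fst was 0.73, against 1.01 over the kept cells of every type. With cell types called cell by cell and no upper limit on genes, a setting added after the data were seen, it was 0.96 in fibroblast-like cells. The difference also varied with sex, at 1.86 (1.78 to 1.94) in female-called and 0.75 (0.65 to 0.86) in male-called fibroblast-like cells. The direction was the same in all of these except among the removed barcodes.

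Chrd, which encodes chordin, had 300 UMIs in BSA and 259 in FGF8 fibroblast-like cells, at 8.43 and 3.70 CPM. The log2 ratio was -1.19 (-1.43 to -0.94), and a UMI was found in 13.5% and 6.62% of cells, or in 1.58% (1.04 to 2.31) and 0.819% (0.536 to 1.20) after thinning. The ratio was -1.58 (-2.10 to -1.09) in female-called and -1.04 (-1.48 to -0.57) in male-called cells. Chrd is a low transcript here, with no cell above 4 UMIs.

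Chrdl1, a relative of chordin, had 327 and 346 UMIs, at 9.19 and 4.95 CPM, with a log2 ratio of -0.89 (-1.12 to -0.67). In the female-called cells it stood at 10.0 and 3.77 CPM (251 and 55 UMIs, log2 ratio -1.41, -1.85 to -0.98). In the male-called cells it stood at 4.52 and 5.36 CPM (31 and 255 UMIs, 0.25, -0.29 to 0.83). The 2 intervals do not overlap, and the direction over all cells was that of the female-called ones.

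Grem1, which encodes gremlin 1, had 1234 and 1711 UMIs, at 34.7 and 24.5 CPM, with a log2 ratio of -0.50 (-0.61 to -0.40). Nog had 301 and 486 UMIs, at 8.46 and 6.95 CPM (-0.28, -0.49 to -0.07), and Bmper 569 and 1114 UMIs, at 15.98 and 15.93 CPM (-0.00, -0.15 to 0.14). Grem1 and Nog were thus a little lower in the FGF8 library. For Bmper the interval, of counting error only, included no difference and lay within 2-fold. Over all fibroblast-like cells the receptors spanned a narrower range than the antagonists, though Bmper was nearer to no difference than any receptor. Bmpr1a had 4850 and 8075 UMIs (log2 ratio -0.24, -0.29 to -0.19), Bmpr1b 2348 and 5255 (0.19, 0.12 to 0.26) and Bmpr2 4574 and 8587 (-0.07, -0.12 to -0.01).

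**Figure D2:**
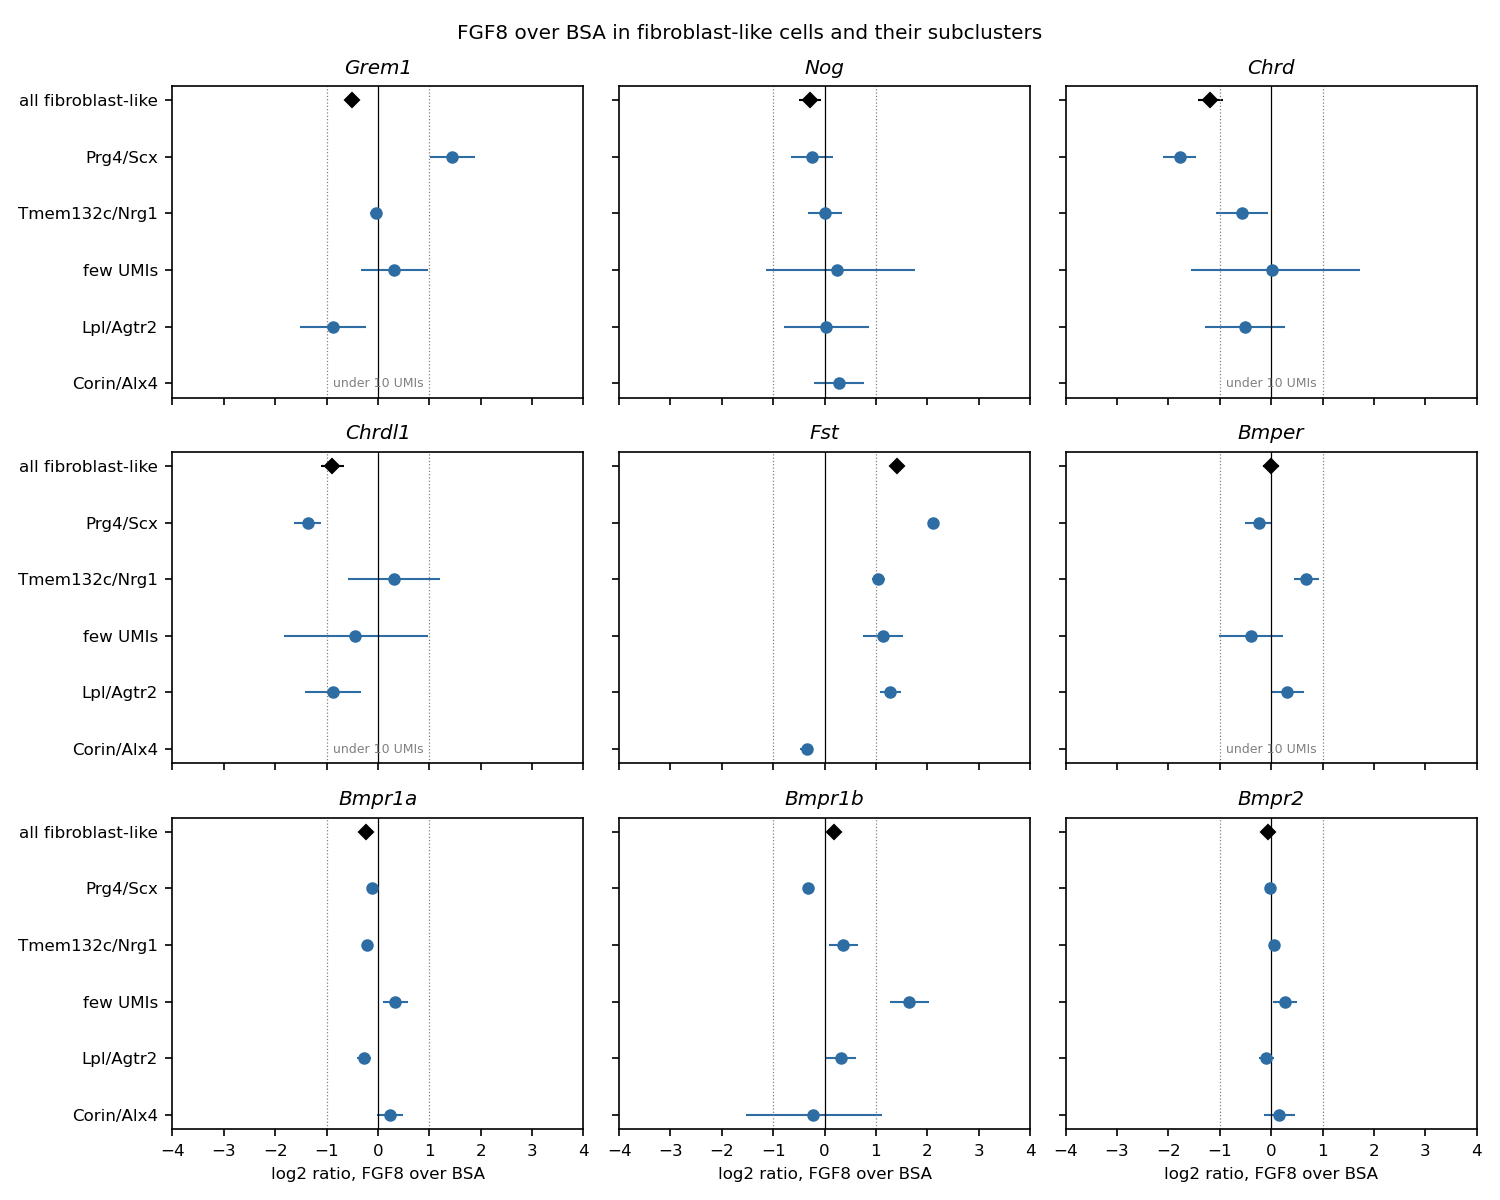
Log2 ratio of FGF8 over BSA for each gene in all fibroblast-like cells (black diamonds) and in each subcluster (blue circles), with bars for the exact 95% interval and dotted lines at 2-fold. The Grem1 diamond lies below 0 (-0.50) while its Prg4/Scx circle lies above it (1.45), and the Fst circle of the Corin/Alx4 subcluster lies below 0 (-0.35).

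The fibroblast-like cells fell into 5 subclusters, each called here by its leading genes. The Prg4/Scx subcluster (Prg4 encodes the joint lubricant lubricin and Scx a tendon transcription factor) made up 31.9% (29.8 to 34.1) of BSA and 40.9% (39.3 to 42.5) of FGF8 fibroblast-like cells. The Tmem132c/Nrg1 subcluster made up 36.2% and 26.6%, the Lpl/Agtr2 subcluster 11.5% and 10.4%, the Corin/Alx4 subcluster 2.18% and 2.36%, and a subcluster of few UMIs, with a median of 1720.5 and 1699 per cell, 18.2% and 19.8%. The Corin/Alx4 subcluster was not above the other cells in the fibroblast marker list. Of the 5 only the Tmem132c/Nrg1 and Lpl/Agtr2 subclusters met the naming rule on their own. The Prg4/Scx subcluster scored highest on the osteoblast list (mean log2 fold of 1.99 over the other cells) and next on the tenocyte list (1.83). It was left unnamed because only 1 of the 6 osteoblast markers was detected in enough cells.

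Grem1 marked the Tmem132c/Nrg1 subcluster in both libraries, and within it the level differed little. It had 1102 UMIs in BSA and 1210 in FGF8 cells, at 89.4 and 86.7 CPM, with a log2 ratio of -0.04 (-0.16 to 0.07), and 37.6% and 33.3% of the cells gave a UMI. In the Prg4/Scx subcluster it had 51 and 386 UMIs, at 3.17 and 8.64 CPM, with a log2 ratio of 1.45 (1.02 to 1.90). That higher level came from 7.96% of the FGF8 cells against 3.94% of the BSA cells. With each subcluster weighted by its share of UMIs in the BSA library, the log2 ratio of Grem1 over all fibroblast-like cells went from -0.50 to 0.05, beside the smaller share of Tmem132c/Nrg1 cells in the FGF8 library. In the Prg4/Scx subcluster the ratio was 2.34 (1.81 to 2.91) in female-called cells and 0.91 (-0.04 to 2.06) in male-called cells, of which the BSA library gave only 9 UMIs.

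Chrd and Chrdl1 were lower in the FGF8 library in the Prg4/Scx subcluster, where both had their highest BSA level. Chrd had 188 UMIs in BSA and 152 in FGF8 cells, at 11.7 and 3.40 CPM (log2 ratio -1.78, -2.10 to -1.46), and a UMI was found in 25.5% and 9.19% of cells. Chrdl1 had 233 and 251 UMIs, at 14.5 and 5.62 CPM (-1.37, -1.63 to -1.10). In the Tmem132c/Nrg1 subcluster Chrd stood at 6.25 and 4.23 CPM (-0.56, -1.08 to -0.06) and Chrdl1 at 1.62 and 2.01 CPM (0.31, -0.57 to 1.21). The Chrd ratio of the Prg4/Scx subcluster was -2.48 (-3.24 to -1.80) in female-called and -1.39 (-2.01 to -0.71) in male-called cells. For Chrdl1 the same ratios were -1.95 (-2.49 to -1.44) and -0.48 (-1.11 to 0.21).

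Fst was higher in the FGF8 library in 4 of the 5 subclusters. Over all 9 genes, 8 of the 41 ratios with at least 10 UMIs in a subcluster, or 19.5%, were past 2-fold, beside 11.6% of the 73593 such ratios over all genes. The 8 include the 4 higher Fst ratios, so they are not 8 separate genes and the 2 shares are not set against each other. The Prg4/Scx subcluster had 911 UMIs in BSA and 10867 in FGF8 cells, at 56.6 and 243 CPM (log2 ratio 2.10, 2.01 to 2.20), and the share of cells with a UMI was 43.5% and 71.7%, or 8.62% (6.47 to 11.2) and 25.2% (23.0 to 27.6) after thinning. The level went from 57.6 to 119 CPM in the Tmem132c/Nrg1 subcluster (1.05, 0.92 to 1.18), from 49.5 to 120 CPM in the Lpl/Agtr2 subcluster (1.27, 1.07 to 1.48) and from 57.2 to 125 CPM among the cells of few UMIs (1.13, 0.76 to 1.53). BSA levels in these 4 subclusters thus lay between 49.5 and 57.6 CPM, and the FGF8 level of the Prg4/Scx subcluster stood above those of the other 3. At resolution 0.3 no single Prg4/Scx subcluster was left. A subcluster led by Prg4 and Mmp3 (267 BSA and 998 FGF8 cells) had log2 ratios of 2.47 for Fst, -2.15 for Chrd and -1.22 for Chrdl1. A second, led by Fmod and Kcnma1, with Scx among its leading genes (315 and 457 cells), had 0.73, -0.82 and -0.42. This second subcluster was unnamed, and scored highest on the osteoblast list (3.34, with 3 of 6 markers detected) and next on the tenocyte list (2.37). The differences of Fst, Chrd and Chrdl1 were thus larger in the first, which held a larger share of the FGF8 cells. Grem1 was at 0.997 (0.53 to 1.49) in the first, from 42 and 358 UMIs, and at 1.33 (0.21 to 2.60) in the second, from 9 and 28 UMIs. Both were below its 1.45 in the Prg4/Scx subcluster at resolution 0.2.

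The Corin/Alx4 subcluster stood apart for Fst. Its 40 BSA cells held 904 Fst UMIs, at 1116 CPM, and its 84 FGF8 cells 1075 UMIs, at 876 CPM, a log2 ratio of -0.35 (-0.48 to -0.22). A UMI was found in 67.5% and 63.1% of them. These 40 cells gave nearly as many Fst UMIs as the 584 BSA cells of the Prg4/Scx subcluster, and without the Corin/Alx4 cells the log2 ratio over the remaining fibroblast-like cells was 1.84. The same subcluster had the highest Nog level among the 5, at 69.1 CPM (56 UMIs) in BSA and 83.9 CPM (103 UMIs) in FGF8 cells (0.28, -0.20 to 0.78), and its Chrdl1 UMIs were 0 and 1.

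**Figure D3:**
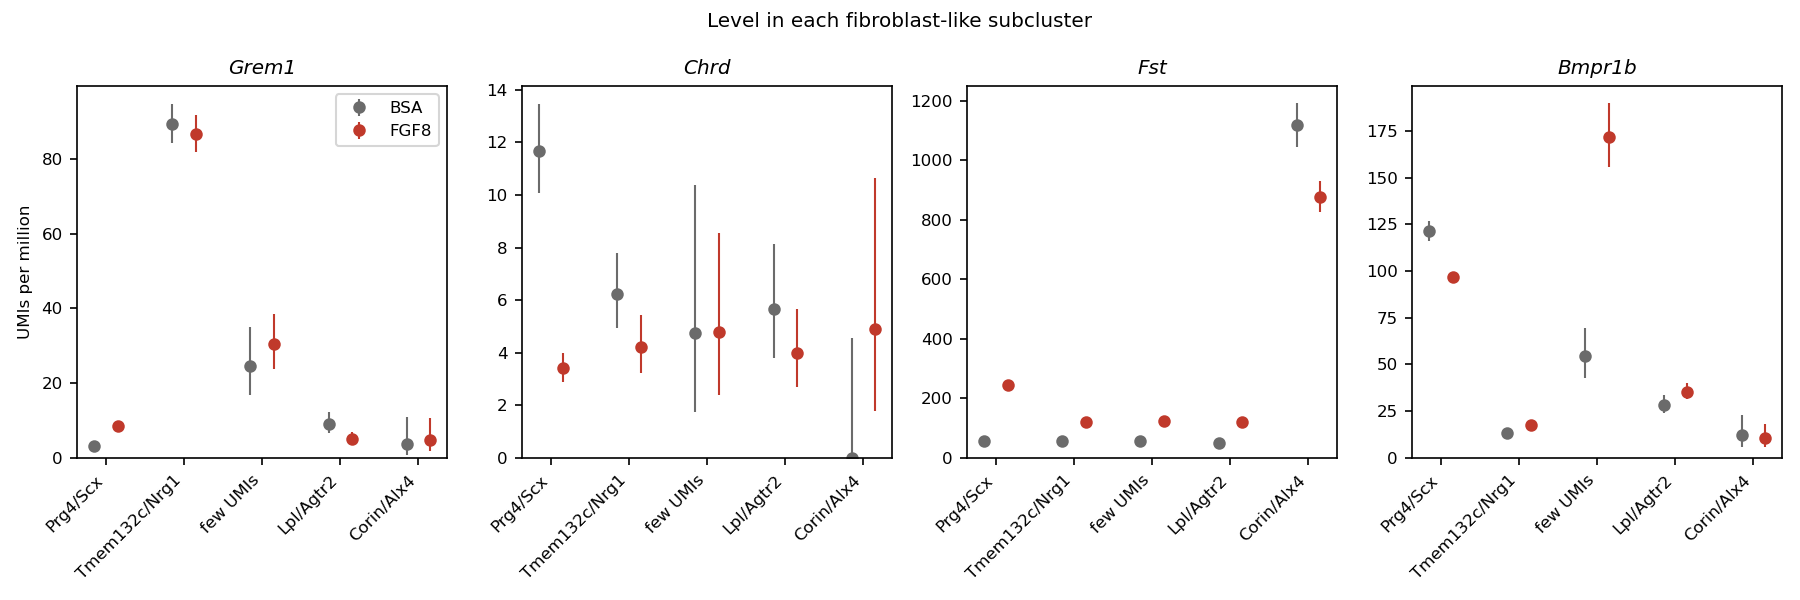
Level of Grem1, Chrd, Fst and Bmpr1b (CPM, linear axes from 0) in the 5 fibroblast-like subclusters, with BSA in grey, FGF8 in red and bars for the exact 95% Poisson interval. Grem1 peaks in the Tmem132c/Nrg1 subcluster at 89.4 and 86.7 CPM, Fst in the Corin/Alx4 subcluster at 1116 and 876 CPM, and BSA Bmpr1b in the Prg4/Scx subcluster at 122 CPM.

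All 3 receptors differed in level between the subclusters. Bmpr1b was at 122 CPM (1956 UMIs) in BSA and 96.8 CPM (4327 UMIs) in FGF8 cells of the Prg4/Scx subcluster, against 13.6 and 17.5 CPM in the Tmem132c/Nrg1 subcluster. Its log2 ratio was -0.33 (-0.41 to -0.25) in the first and 0.37 (0.08 to 0.66) in the second. Bmpr1b was left out of the features that formed the subclusters, and was among the leading genes of the Prg4/Scx subcluster. The ratio was positive over all fibroblast-like cells (0.19) and negative (-0.11) with the subcluster mix held at that of BSA, the Prg4/Scx subcluster being larger in the FGF8 library. Among the cells of few UMIs Bmpr1b had 69 and 395 UMIs, at 54.8 and 172 CPM (1.65, 1.28 to 2.04).

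Bmpr1a was at 105 and 97.0 CPM in the Prg4/Scx subcluster, at 163 and 141 CPM in the Tmem132c/Nrg1 subcluster and at 243 and 287 CPM in the Corin/Alx4 subcluster. Bmpr2 was at 110 and 108 CPM, 140 and 145 CPM, and 179 and 200 CPM in the same 3. Between the libraries both differed less than 2-fold in each subcluster. Over the 5 subclusters the log2 ratio of Bmpr1a lay between -0.27 in the Lpl/Agtr2 subcluster and 0.34 among the cells of few UMIs, and that of Bmpr2 between -0.09 and 0.27 in the same 2 groups. Bmper was at 17.3 and 27.8 CPM in the Tmem132c/Nrg1 subcluster (213 and 388 UMIs, 0.69, 0.44 to 0.93) and at 11.3 and 9.53 CPM in the Prg4/Scx subcluster (182 and 426 UMIs, -0.25, -0.50 to 0.01). Its value of -0.00 over all fibroblast-like cells thus joined ratios above and below 0, though the interval of the Prg4/Scx subcluster includes 0. With the subcluster mix held at that of BSA, the Bmper ratio over all fibroblast-like cells was 0.273. In the Tmem132c/Nrg1 subcluster the ratio was -0.13 (-0.62 to 0.34) in female-called and 1.53 (0.98 to 2.13) in male-called cells.

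The rest of the BMP pathway gave the setting for these genes. Of 56 other pathway genes listed by role, 51 reached 10 UMIs among the fibroblast-like cells. Of these, 3, or 5.88%, were past 2-fold, beside 11.7% of all genes. With at least 100 UMIs required, 2 of 45 pathway genes were past 2-fold, beside 5.47% of all genes, so the list then lay near that share. The median log2 ratio of the 51 was -0.29, with 13 higher and 38 lower in the FGF8 library, beside a median of -0.07 over all genes, of which 11192 of 20101 were lower. This median was nearer 0 in some other settings, at -0.05 with cells weighted equally, -0.07 with clusters at resolution 0.2, -0.12 after thinning and -0.13 under the stricter cell filter. The 2 with at least 100 UMIs were both SMADs: Smad9, a receptor-activated SMAD, with 43 and 236 UMIs at 1.21 and 3.37 CPM (1.48, 1.01 to 1.99), and the inhibitory Smad7, with 3259 and 12869 UMIs at 91.5 and 184 CPM (1.01, 0.95 to 1.06). The third was the ligand Bmp15, with only 10 and 8 UMIs.

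By role, the ligands, other antagonists and other receptors had medians below that of all genes, and the 6 SMADs, 3 higher and 3 lower, a median of 0.03. Of the 11 ligands with enough UMIs 8 were lower, with a median of -0.56. That median is the value of Bmp8b, which had only 6 and 8 UMIs (-2.28 to 1.25). The intervals of Bmp7, Bmp8b and Bmp15, among those lower, and of Gdf6, among those higher, include 0. Bmp2 was the highest ligand at 0.99 (0.86 to 1.11), from 19.2 to 38.0 CPM. Of 16 other antagonists and modulators 14 were lower, none past 2-fold, with a median of -0.36. All 5 other receptors were lower, between -0.47 and -0.19. Among the 3 proteases that can cleave chordin, Bmp1 stood at -0.35 (-0.41 to -0.30), Tll1 at 0.50 (0.39 to 0.61) and Tll2, with 32 UMIs in all, at 0.86 (-0.39 to 2.32).

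The 10 target genes divided into 3 that were higher and 7 that were lower. Id1 went from 147 to 274 CPM (log2 ratio 0.90, 0.86 to 0.94) and Id3 from 303 to 528 CPM (0.80, 0.77 to 0.83), both inhibitors of differentiation known as direct BMP targets. Atoh8 went from 4.19 to 7.28 CPM (0.80, 0.53 to 1.07). The other 7 (Id2, Id4, Msx1, Msx2, Dlx5, Dlx3 and Hey1) lay between -0.61 and -0.05, and the intervals of Id2, Dlx5 and Dlx3 include 0. Bmp2, the proteases and the targets lay within 2-fold and were chosen for naming after their values were seen.

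**Figure D4:**
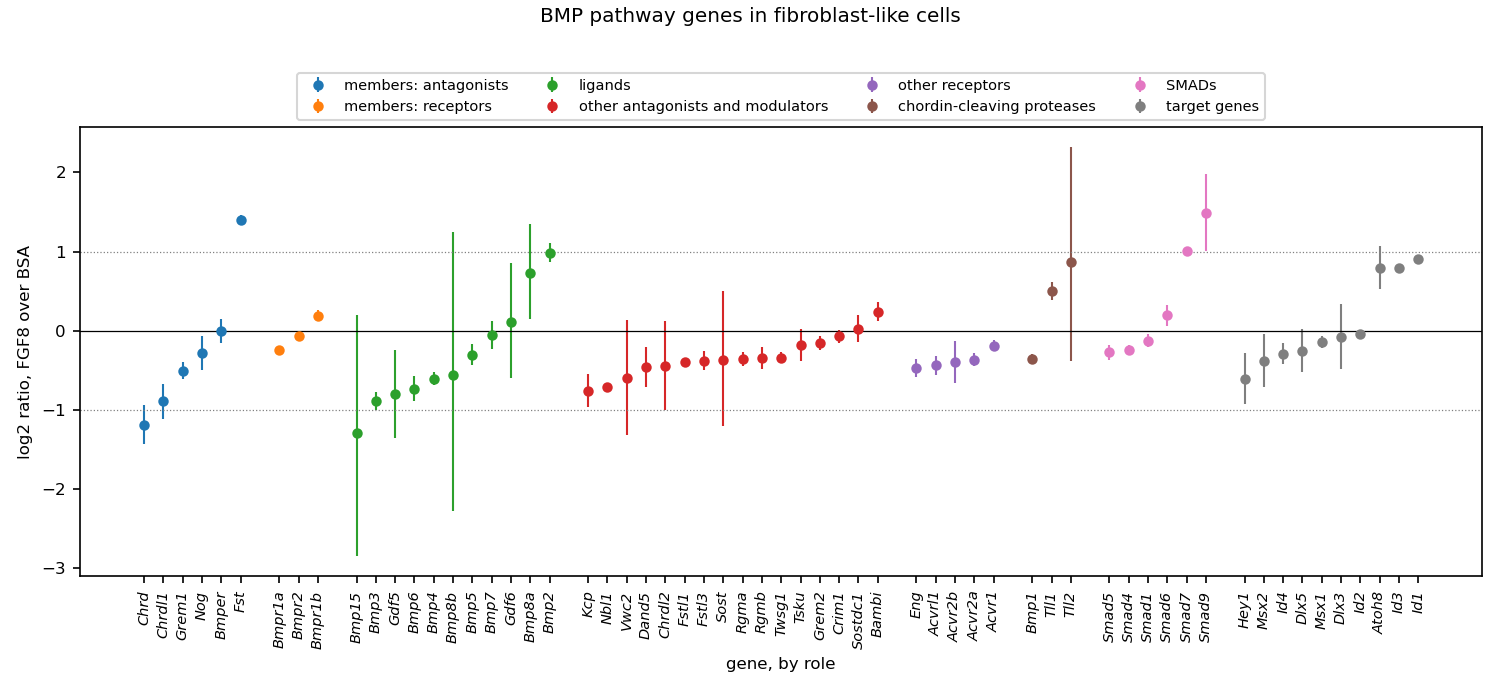
Log2 ratio of FGF8 over BSA in fibroblast-like cells for the 9 genes and the 51 pathway genes with at least 10 UMIs, grouped by role, with exact 95% intervals and dotted lines at 2-fold. Fst (1.40), Smad9 (1.48) and Smad7 (1.01) lie above the upper line, and Chrd (-1.19) and Bmp15 (-1.30) below the lower one.

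Fibroblast-like cells of the libraries also differed in markers of other cells. The summed level of the 11 fibroblast markers was 46240 CPM in BSA and 24970 CPM in FGF8 cells, all 11 detected in both. The 7 neutrophil markers summed to 9.92 and 39.5 CPM and the 5 T or NK markers to 2.92 and 11.3 CPM. The 8 Schwann markers, of the cell type with the highest Fst level, summed to 20.8 and 17.4 CPM. The 9 keratinocyte markers summed to 63.6 and 78.3 CPM. The 5 lymphatic endothelial markers summed to 15.4 and 4.33 CPM. The part of these shifts in the ratios above was not tested.

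**Figure D5:**
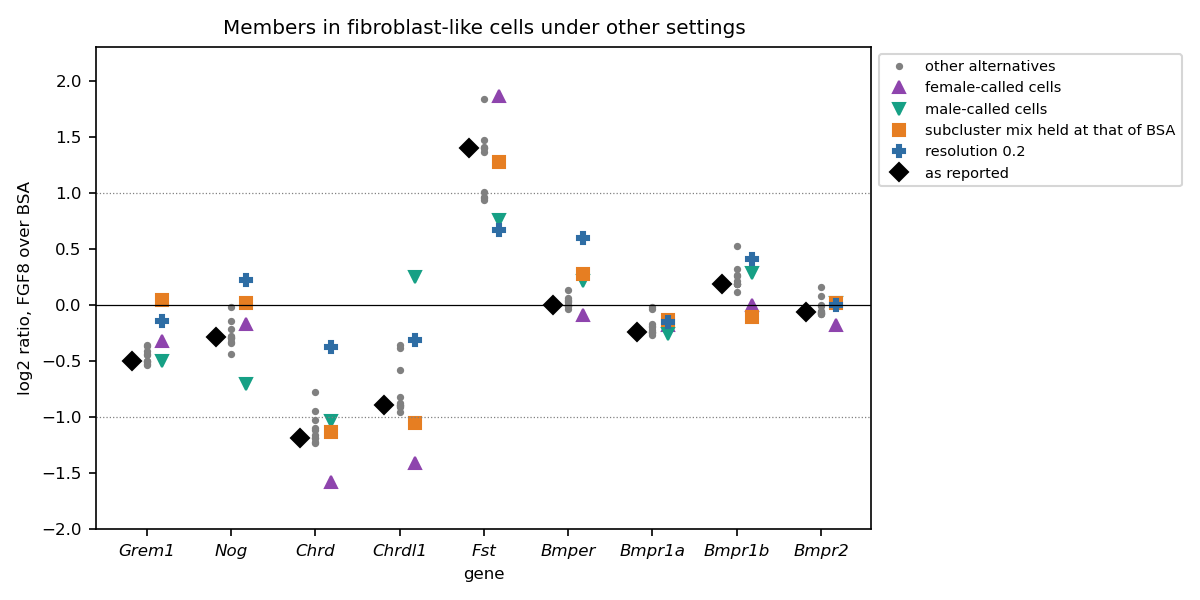
Log2 ratio of FGF8 over BSA in fibroblast-like cells for each gene as reported (black diamonds) and under 14 other settings. Fst stays above 0 (0.67 to 1.86) and Chrd below 0 (-1.58 to -0.37) in all of them, whereas Chrdl1 spans -1.41 in female-called to 0.25 in male-called cells.

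The genes most like each one over the cell types were found by the Pearson correlation of log2(CPM + 1) over the 22 combinations of cell type and library, which share libraries and depths and are given as a description. Nog and Chrdl1 were like each other (r = 0.946) and both most like Vit (r = 0.952 for each), with Pcolce2 (0.941) next for Nog and Alpl (0.905) for Chrdl1. Chrd was most like Agtr2 (0.884), Apela (0.871) and Adamts14 (0.859). Fst was most like Dnah7b (0.882), Fzd1 (0.876) and Ctxnd1 (0.865), Bmper most like Rab15 (0.894), Dusp14 (0.886) and Septin5 (0.866), and Grem1 least closely matched, to C1qtnf3 (0.819), Irx5 (0.775) and Efemp1 (0.774). Bmpr1a was most like Emp2 (0.920), Tead3 (0.918) and Kctd15 (0.914), and Bmpr1b most like Bgn (0.901), Hoxa11os (0.899) and P4ha3 (0.887). Bmpr2 was most like Trio (0.946), Rere (0.939) and Rai14 (0.939).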

How the data were processed

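The authors counted 10x Genomics 3′ libraries with Cell Ranger 9.0.0 and deposited raw UMI counts per gene and barcode. The processing notes name both GRCm39 and mm10, and the gene identifiers were placed on GRCm39. From these counts, cells were kept if they showed over 200 but below 7500 genes and had less than 15% of mitochondrial counts, which are the limits of the study's methods. Doublets were treated by the upper limit on genes alone, with no doublet caller.

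Each library was normalized by SCTransform (0.4.2), and the libraries were integrated by canonical correlation (30 dimensions, seed 42, Seurat 5.3.0, R 4.3.3) and clustered at resolution 0.05. The features excluded the 9 genes, the pathway list and genes on the sex chromosomes. Mixed clusters were divided at 0.2, and the fibroblast-like cells gave their subclusters there, with the study's lists of fibroblast genes also left out. Clusters were named from marker lists.

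Within each library, the UMIs of a cell type were added up (Python 3.11.15, scipy 1.17.1). Ratios needed 10 UMIs over both libraries, and 2-fold was the threshold. Ratios have exact conditional intervals, levels exact Poisson and shares exact Clopper-Pearson ones, all covering counting error only, and a count of 0 was set at 3 counts per library in a ratio. The functions were tested on simulated data. The members and lists were chosen with earlier results of these data known. Named besides the 9 genes were pathway genes past 2-fold with at least 100 UMIs, and the 3 genes most like each. Alternatives covered the cell filter, resolution, weighting of cells, thinning, sex, centring and subcluster mix.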

Additional observations from a re-analysis of the deposited data

Results flagged for a closer look

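With 1 library per group no sample could stand apart from others of its group. A gene was picked out where the log2 ratio of FGF8 over BSA had opposite signs in 2 subclusters or cell types, each with at least 100 UMIs and an interval that leaves out 0. The difference between the 2 was tested in none of them.

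Between fibroblast-like subclusters, Fst was at -0.35 in the Corin/Alx4 and 2.10 in the Prg4/Scx subcluster, Bmpr1a at -0.27 in the Lpl/Agtr2 subcluster and 0.34 among the cells of few UMIs, and Bmpr1b at -0.33 in the Prg4/Scx subcluster and 1.65 among the cells of few UMIs. Between cell types, Fst was at -0.31 in Schwann-like and 2.93 in keratinocyte-like cells, Bmpr1a at -0.24 in fibroblast-like and 1.72 in neutrophil-like cells, Bmpr1b at -0.61 in smooth muscle or pericyte-like and 0.19 in fibroblast-like cells, and Bmpr2 at -0.0655 in fibroblast-like and 0.73 in neutrophil-like cells. The neutrophil-like cells had a median of 3214 and 2413 UMIs in BSA and FGF8.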

How the results depend on the processing

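Across 14 other settings, 3 of them added after the data were seen, Fst stayed higher and Chrd lower in FGF8 fibroblast-like cells, and Bmpr1a stayed lower. Of the 9 genes, 2 were past 2-fold as reported. The number was 1 under the stricter cell filter, with cells weighted equally, in male-called cells and with no upper limit on genes. It was 0 with clusters at resolution 0.2 (which leaves the Prg4 cells out, being unnamed there) and with cells thinned to 2000 UMIs. In each of those settings 8.34% of all genes were past 2-fold. The number was 3 in female-called cells and with the subcluster mix held at that of BSA (8.96% of all genes with that mix). Of the pathway list, 3 were past 2-fold as reported, and 1 under the stricter filter (10.3% of all genes), 5 with cells weighted equally (16.4%), 10 in female-called cells (14.0%), 6 in male-called cells (12.9%) and 5 with no upper limit on genes (11.1%), of 49 to 51 genes. Directions turned for Nog at resolution 0.2 (0.222) and with the subcluster mix held at that of BSA (0.0146), for Grem1 (0.0477) and Bmpr1b (-0.107) with that mix, for Bmpr1b in female-called cells (-0.00232) and for Chrdl1 in male-called cells (0.247). Bmpr2, at -0.07 as reported, turned with cells weighted equally (0.157), thinned (0.0805), male-called (0.0126), centred on the median gene (0.00246) and with the BSA mix (0.0145). Bmper, at -0.00 as reported, kept its sign in 5 of the 14 and reached 0.593 at resolution 0.2, 0.273 with the BSA mix and 0.213 in male-called cells. Except where a setting's construction shows it, the cause was not tested. The highest cell type held in 17 of 18 cases with types called per cell and in 12 of 18 after thinning. No paired analysis was possible because each group has 1 library. Depth limits Chrd, Nog and Chrdl1 most, each under 10 CPM in fibroblast-like cells.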
